A study of Mus musculus with 11 samples.

Results

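Chaperones help other proteins fold, and the genes described here encode the chaperones and stress sensors of the endoplasmic reticulum (ER), the cytosol and the mitochondria. The set was a list of 39 genes given by name. No threshold on a measured value was used, but the list was drawn up with earlier results of these data known. Every row of the array with one of these names as its gene name was taken, which gave 49 probes for 38 of the 39 genes, out of 36413 names on the array, and 48 of these probes and all 38 genes passed the detection rule. The remaining gene, Hspa1b, had no row under its name and was not analysed here. Grouped by the compartment whose protein folding they serve, 25 of the 39 genes are counted with the ER, among them the transcription factors Xbp1, Atf4 and Ddit3, which act in the nucleus. A further 12 are counted with the cytosol, Hsf1 included, and 2 with the mitochondria.

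RNA came from the descending aorta of 20-month-old male C57BL/6 mice. In the nitrate group (n = 5), the drinking water held 1 g/L NaNO3 for 8 weeks. In the control group (n = 6) the agent is labeled control, the study's methods name an equal concentration of sodium chloride for it, and the labels call these arrays a reanalysis of earlier samples without naming sodium chloride. Each mouse was measured on 1 single-color Agilent array, and whole aortic tissue was used, so fewer cells of a type and less RNA per cell cannot be told apart. A further nitrate array of the study was not analysed here.

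All 6 smooth muscle markers and all 6 endothelial markers were well above background on every array. Over the 11 arrays the signal had a 75th percentile of 213 to 289, and no spot was saturated. The arrays lay on 3 slides, of which slides 1 and 3 held 2 arrays of each group and slide 2 held 1 nitrate array and 2 control arrays. Column 3 of each slide held controls alone and no other column held any, so position on the slide and treatment cannot be told apart. Levels below are log2 signals after quantile normalization, and a difference is the nitrate mean minus the control mean on that scale. The level of a gene is that of its brightest detected probe, and probes of different genes are not compared in level. Precision is limited by having 11 arrays.

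When unfolded proteins build up in the ER, 3 membrane proteins sense it, namely Atf6, Ern1 (IRE1) and Eif2ak3 (PERK). They act through cleaved Atf6, through an unconventionally spliced Xbp1 mRNA and through increased translation of Atf4, and these factors raise the transcription of ER chaperones such as Hspa5 (BiP). This program is the unfolded protein response (UPR). The cytosol has a separate program, the heat shock response, in which Hsf1 raises Hspa1a, Hspa1b, Dnajb1, Hsph1 and others. Cleavage, splicing and translation were not measured by these arrays, which give mRNA levels alone.

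The promoters of these genes were searched for the exact letters of classical elements of the 2 programs, so an element that departs from them by a base or in spacing is not counted. RefSeq (GRCm38.p6) windows of 250 bases before to 50 bases after a transcript start were at hand for 31 of the 39 genes (22 ER, 7 cytosolic and 2 mitochondrial). Some genes have several starts, so these are 36 windows, and a gene is counted where any of its windows holds the letters. The ER stress element, read here as CCAAT and CCACG with 9 bases between them on either strand, was in the windows of 8 of the 22 ER genes and of none of the 7 cytosolic or 2 mitochondrial genes. Of all 27025 genes with a window, 0.137% held it. The sites are shown because among these genes the element was found in ER genes alone, 7 of them chaperones or folding enzymes and Syvn1 a degradation ligase, with the letters searched for in capitals, each read 5′ to 3′ along the element.
Hspa5: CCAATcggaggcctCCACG
Hsp90b1, distal site: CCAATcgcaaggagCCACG
Hsp90b1, proximal site: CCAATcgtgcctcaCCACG
Calr: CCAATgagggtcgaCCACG
Canx: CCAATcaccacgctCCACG
Pdia6: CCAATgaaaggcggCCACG
Dnajc3: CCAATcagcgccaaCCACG
Creld2: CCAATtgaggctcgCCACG
Syvn1: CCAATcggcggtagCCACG

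In GRCm38.p6 these sites lie at chr2:34772025-34772043 (Hspa5), chr10:86705638-86705656 and chr10:86705533-86705551 (Hsp90b1), chr8:84847075-84847093 (Calr) and chr11:50325800-50325818 (Canx). The others lie at chr12:17266491-17266509 (Pdia6), chr14:118937827-118937845 (Dnajc3), chr15:88819520-88819538 (Creld2) and chr19:6046532-6046550 (Syvn1). The Hsp90b1 distal site, Canx and Creld2 read along the minus strand of the chromosome and the others along the plus strand. Hspa5 is the standard reporter of the UPR, and the 120 bases before its start, chr2:34771970-34772089 on the plus strand, run as follows with the same element in capitals.
Hspa5: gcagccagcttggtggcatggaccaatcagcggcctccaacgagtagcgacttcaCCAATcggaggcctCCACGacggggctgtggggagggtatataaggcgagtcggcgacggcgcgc

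The shorter ER stress element II, ATTGG and CCACG with 1 base between them, was in the windows of Dnajb11 and Herpud1 and of 0.0444% of all genes with a window. The letters TGACGTGG, a UPR element, were in no window of the 31 genes and in those of 0.714% of all genes. The heat shock element, read as GAA, TTC and GAA with 2 bases between each, was in a window of 0.662% of all genes, and here of Hsph1, Hspd1 and Hspe1. The windows of Hspa1a, Hspa1b, Dnajb1 and Hspb1 did not hold these exact letters. Hspd1 and Hspe1 encode the partner subunits of the mitochondrial chaperonin and are transcribed in opposite directions from starts 216 bases apart, and the same stretch, chr1:55088059-55088076, holds 2 overlapping elements for both. RefSeq lists a further Hspd1 start, and the 250 bases before it, chr1:55088244-55088493, hold no such element. The stretch lies 89 bases before the Hspe1 start and 144 bases before the Hspd1 start, and is read along the Hspe1 strand with the element letters in capitals. The Hsph1 site, chr5:149636288-149636300, lies after the start.
Hspd1 and Hspe1: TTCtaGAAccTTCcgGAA
Hsph1: GAActTTCcaGAA
The CCAAT box alone, which is also part of the ER stress element, was in a window of 19 of the 22 ER genes, 5 of the 7 cytosolic genes, 1 of the 2 mitochondrial genes and 41.1% of all genes. Such matches describe the letters of these windows and are no evidence of binding.

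Across the list, mRNA levels of old nitrate treated mice lay close to those of old controls. A gene was called where limma gave an unadjusted P value under 0.05 and the fold change was above 1.2. By this rule 0 of the 38 genes were called higher and 1 was called lower. Over all 18294 names with a detected probe, 4.27% were called higher, 4.62% lower and 8.89% in either direction, against 2.63% of the 38 genes. Before the fold limit, 1 of the 38 genes had a P value under 0.05, and 14.5% of all names did. The groups were free of overlap in 0 of the 38 genes, against 1.78% of all names where every nitrate mouse lay above every control and 1.16% where every nitrate mouse lay below. After Benjamini-Hochberg adjustment 0 of the 38 genes passed 0.05, with a smallest adjusted P value of 0.194, and 0.00547% of all names passed.

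Differences of 20 genes lay above 0 and those of 18 below, with a median of 0.01 beside 0.02 over all names, of which 54.6% lay above 0. The median size of the difference, regardless of sign, was 0.056 for the 38 genes and 0.106 for all names. In 35 of the 38 genes the unadjusted 95% interval of the difference lay within 0.5 log2 units of 0 on both sides. The exceptions were Hsph1, Hspa1a and Atf4, and the interval of Dnajb1 just reached that bound. A P value over the threshold does not show equal levels, and the intervals give the sizes these 11 arrays leave possible.

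**Figure D1:**
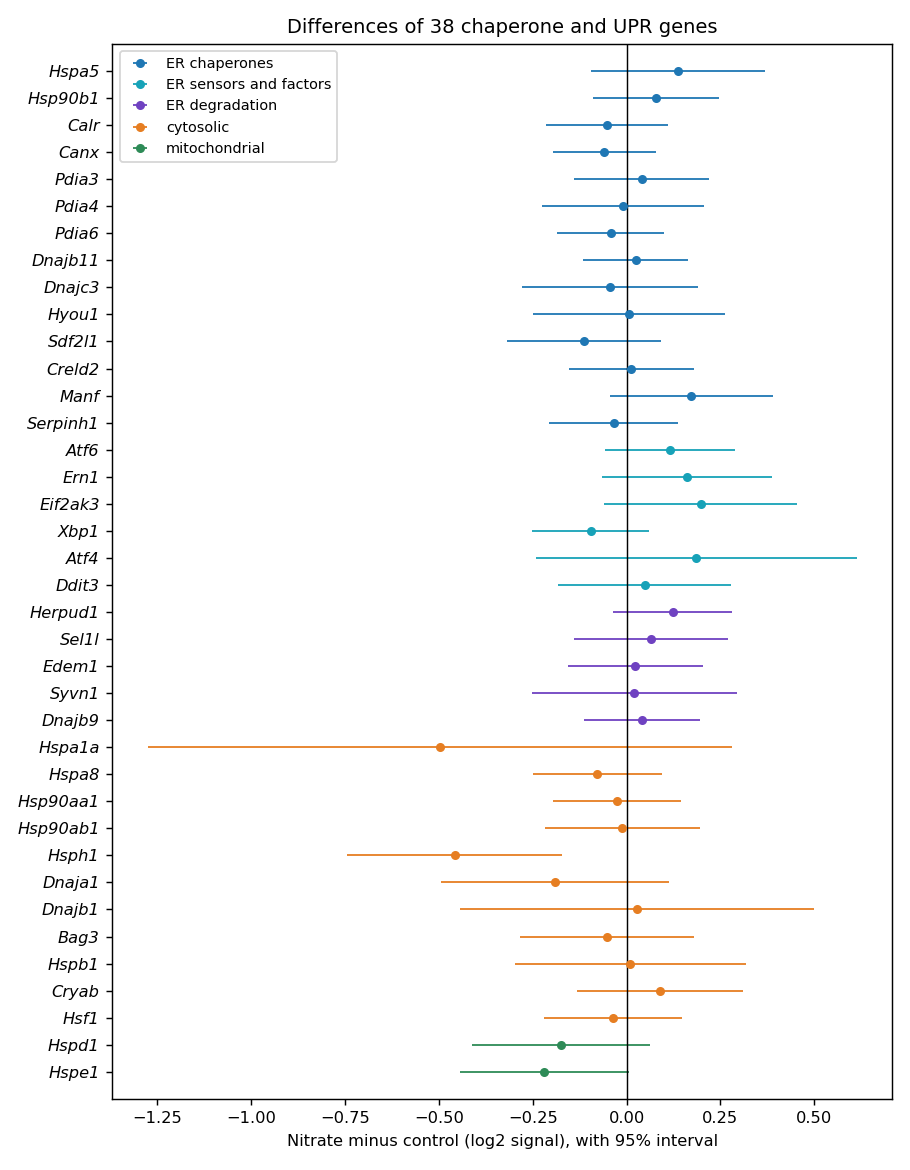
Nitrate minus control difference in log2 signal (x axis) for each of the 38 genes with a probe (y axis), with points for limma's estimate from 5 nitrate and 6 control mice, bars for its 95% interval, and colors for the role of the gene. Hsph1 at -0.46 is the gene whose interval lies fully below 0, and the interval of Hspa1a, from -1.28 to 0.28, is the widest.

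Among the ER genes, none of 25 was called, and differences ran from -0.11 to 0.20 with a median of 0.02. The 14 ER chaperones and folding enzymes were divided evenly around 0, with 7 above and 7 below and a median of -0.00. Hspa5, the Hsp70 of the ER, had levels of 13.66, 13.81, 13.52, 13.54 and 13.64 in nitrate mice 1 to 5, and of 13.18 to 13.72 with a median of 13.59 in controls. Controls 1 and 2 were low at 13.27 and 13.18, and the other 4 controls lay within the range of the nitrate mice. The difference was 0.14 with an interval of -0.09 to 0.37 and a P value of 0.220 (limma). The probe lies at chr2:34631913-34631972 in mm9.

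The remaining ER chaperones lay nearer to 0 with few exceptions. Hsp90b1 (Grp94), the Hsp90 of the ER, differed by 0.08 and was lowest in control 1 at 13.01, below all other mice, which lay between 13.32 and 13.44, and without control 1 the difference was 0.02. The lectin chaperones Calr and Canx, which hold glycoproteins during folding, differed by -0.05 and -0.06. The disulfide isomerases Pdia3, Pdia4 and Pdia6 differed by 0.04, -0.01 and -0.04. A second Pdia6 probe differed by -0.13, with a P value of 0.0770 (limma) and an exact permutation P value of 0.0303. Of the helpers of Hspa5, Dnajb11 differed by 0.02, Dnajc3 by -0.04, Hyou1 by 0.01 and Sdf2l1 by -0.11.

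Manf, a secreted protein of the stressed ER, had the largest difference of the 14, at 0.17 with an interval of -0.05 to 0.39. Its levels in nitrate mice ran from 10.21 to 10.52 with a median of 10.32, and in controls from 9.97 to 10.43 with a median of 10.22, so the groups overlapped. Creld2 differed by 0.01. The 8 genes with the ER stress element shown above, Hspa5 to Syvn1, differed by -0.06 to 0.14, with 4 above 0 and 4 below. Serpinh1 (Hsp47), the collagen chaperone and so of interest in an artery wall rich in collagen, differed by -0.03 with an interval of -0.21 to 0.14.

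The sensors and factors of the UPR had the highest median of the groups, 0.14, with 5 of 6 above 0 and none called. Without control 1 that median was 0.07, with 2 of the 6 genes below 0. Eif2ak3, the kinase that slows translation, differed by 0.20 (interval -0.06 to 0.45), with levels of 8.06, 8.33, 8.09, 8.29 and 8.47 in nitrate mice and of 7.80 to 8.34 with a median of 8.02 in controls. All 5 nitrate mice lay above the control median, and 1 lay above every control. Ern1 differed by 0.16 and Atf6 by 0.11, and the spot of Ern1 was not marked as found on the arrays of nitrate mice 1 and 2, so it met the detection rule on 9 arrays. Xbp1 differed by -0.10, and its probe does not report splicing. Ddit3 (CHOP), the factor tied to cell death under long stress, differed by 0.05.

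Atf4 was the ER gene that varied most between mice. Its levels were 12.81, 13.61, 13.60, 13.67 and 13.60 in nitrate mice, and ran from 12.63 to 13.65 with a median of 13.34 in controls. Nitrate mouse 1 and control 1 stood low, while the other 4 nitrate mice lay between 13.60 and 13.67, near the top of the controls. The difference was 0.19 with an interval of -0.24 to 0.61, and was 0.35 without nitrate mouse 1 and 0.06 without control 1. A second Atf4 probe differed by 0.10.

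The 5 genes of ER-associated degradation, which returns misfolded proteins to the cytosol, lay near 0, from 0.02 to 0.12 with a median of 0.04 and none called, and with a mouse left out 0 or 1 of the 5 lay below 0. Of the 12 detected genes of the further degradation list, 9 lay below 0 and 3 above, with a median of -0.04. Herpud1, a scaffold of that machinery and a sensitive UPR target, differed by 0.12 with an interval of -0.04 to 0.28, and all 5 nitrate mice lay above the control median. Sel1l and Syvn1 (Hrd1), the core of the ligase complex, differed by 0.06 and 0.02, and Edem1, which picks out glycoproteins, by 0.02. Dnajb9, a strong target of spliced Xbp1, differed by 0.04 on its brightest probe and by -0.13 on its other probe.

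**Figure D2:**
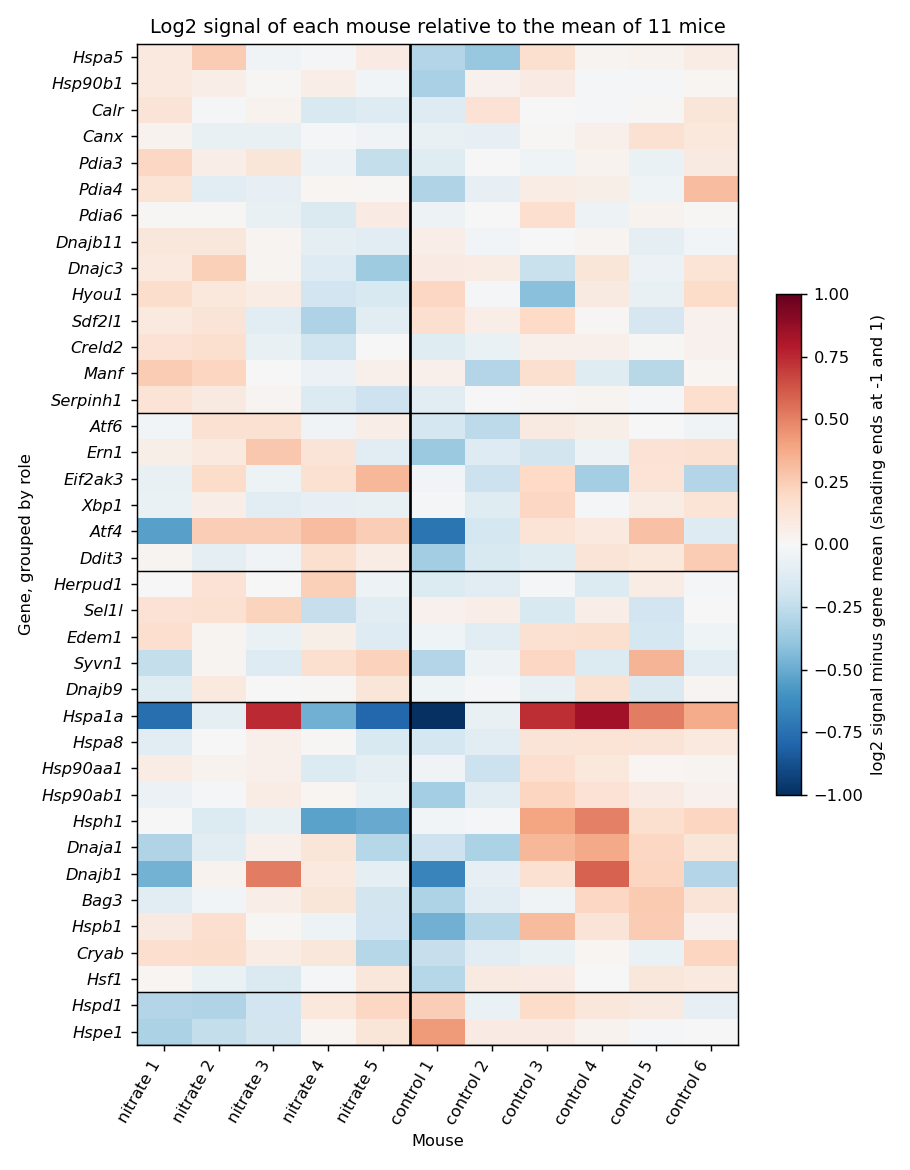
Log2 signal of each of 38 genes (rows, grouped by role) in each of 11 mice (columns), minus the mean of that gene over the mice, with red above and blue below it. Hspa1a, Atf4 and Dnajb1 show the strongest shades, with nitrate mouse 1 and control 1 low in each.

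The 11 cytosolic genes with a probe had a median difference of -0.04, beside 0.02 for the ER genes, with 3 above 0 and 8 below, and 1 was called. With a mouse left out the cytosolic median ran from -0.10 (without control 1) to -0.01 (without nitrate mouse 5), with 6 to 10 of the 11 genes below 0. The gap between the compartments is a description and was not tested. The called gene was Hsph1 (Hsp110), which recharges Hsp70 by nucleotide exchange and helps it dissolve aggregates. Its levels were 12.08, 11.95, 12.01, 11.55 and 11.57 in nitrate mice 1 to 5, and 12.06, 12.07, 12.48, 12.59, 12.25 and 12.30 in controls 1 to 6. The groups touched at nitrate mouse 1 and controls 1 and 2, and the other 4 nitrate mice lay below every control. The difference was -0.46 with an interval of -0.74 to -0.17, so the control mean was 1.37 times the nitrate mean, with a P value of 0.00451 and an adjusted P value of 0.194 (limma). The two-sided exact permutation test over 462 divisions of the mice gave a P value of 0.0130.

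A second Hsph1 probe differed by -0.38 with a P value of 0.0338 (limma) and an exact permutation P value of 0.0628, and by 0.12, -0.37 and -0.78 within slides 1, 2 and 3. Within slides 1, 2 and 3 the difference of the brightest probe was -0.05, -0.44 and -0.80, and with slide as a block it was -0.43. In all 24 alternatives tried, the exact test included, Hsph1 was called lower at the unadjusted threshold, with adjusted P values from 0.152 to 0.511. Without nitrate mouse 1 the groups did not overlap. The probe lies at chr5:150419744-150419803 in mm9.

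Hspa1a, the inducible Hsp70 and the classical heat shock gene, had the largest difference of the list and no call. Its levels were 9.56, 10.23, 11.07, 9.84 and 9.53 in nitrate mice, and 9.28, 10.25, 11.06, 11.16, 10.83 and 10.69 in controls. Mice at the bottom and the top of the range came from both groups. The difference was -0.50 with an interval of -1.28 to 0.28 and a P value of 0.188 (limma). The spread within groups, an SD of 0.67, was larger than that of 98.8% of all names, and the 11 mice spanned 1.88 log2 units.

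The Hspa1a difference turned on single mice and on the slide. Without nitrate mouse 3 it was -0.75 with a P value of 0.0426, and without control 1 it was -0.75 with a P value of 0.0248 (limma), so either omission gave a call. Within slides 1, 2 and 3 it was 0.13, 0.14 and -1.26. Hspa1b is a near-identical copy, and the Hspa1a probe, at chr17:35107117-35107176 in mm9, may take up its RNA too.

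Dnajb1, the heat-inducible partner of Hsp70, varied less than Hspa1a, spanning 1.25 log2 units over the mice, yet its SD of 0.40 was larger than that of 92.4% of all names. Its levels ran from 11.88 to 12.86 in nitrate mice and from 11.69 to 12.94 in controls, with a median of 12.38 in both, and the difference was 0.03. Dnaja1, another partner of Hsp70, differed by -0.19 with all 5 nitrate mice below the control median, and an interval of -0.49 to 0.11. Hspa8, the constitutive Hsp70, differed by -0.08 on its brightest probe. Its other probes differed by -0.24 with a P value of 0.0296 (limma) and by -0.13, so the probes of this gene differ in size and not in direction.

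The other cytosolic genes had small differences. Hsp90aa1 and Hsp90ab1, the inducible and constitutive Hsp90, differed by -0.03 and -0.01, and Hsf1, the factor of the heat shock response, by -0.04. Bag3, which links Hsp70 to autophagy in muscle, differed by -0.05. The small heat shock proteins Hspb1 and Cryab, abundant in smooth muscle, differed by 0.01 and 0.09, and a second Cryab probe by -0.01.

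**Figure D3:**
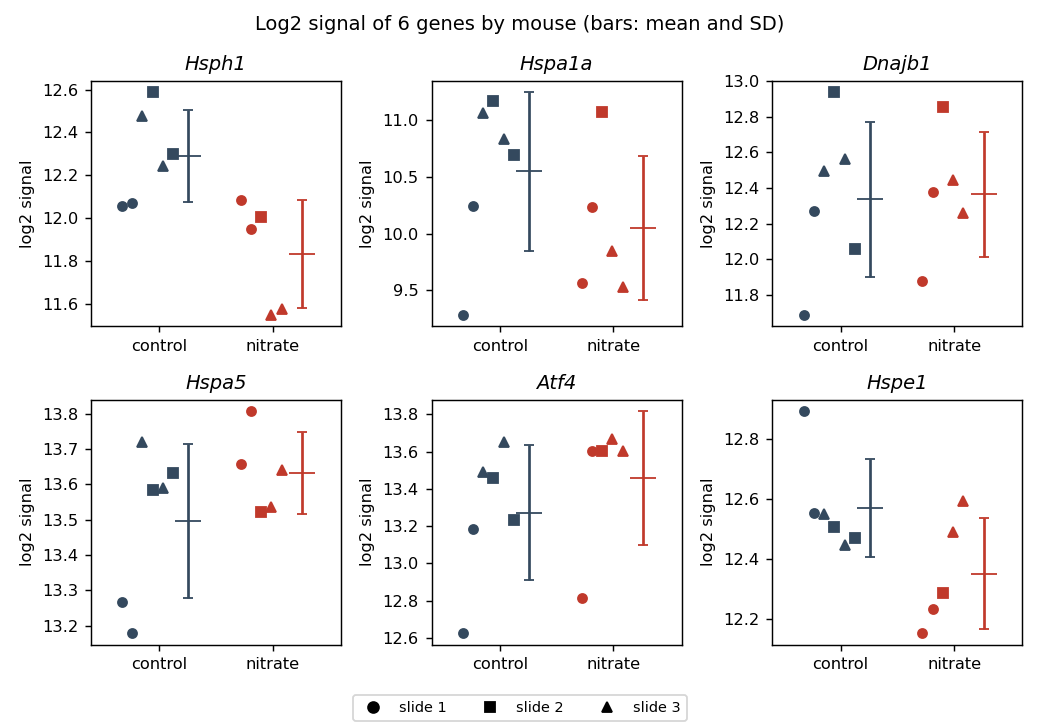
Log2 signal (y axis) of 6 genes in 6 control and 5 nitrate mice, with marker shapes for the slide and bars for the mean and SD of each group. The y axes do not start at 0 and differ between panels. In Hsph1 the nitrate mice of slide 3 are lowest, at 11.55 and 11.57, and in Hspa5 the low controls, at 13.27 and 13.18, are both on slide 1.

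Both mitochondrial genes lay below 0 and neither was called. Hspe1 (Hsp10), the lid of the chaperonin, had levels of 12.15, 12.23, 12.29, 12.49 and 12.59 in nitrate mice and of 12.45 to 12.89 with a median of 12.53 in controls. Nitrate mice 1 to 3 lay below every control, and nitrate mice 4 and 5 lay among them. The difference was -0.22 with an interval of -0.44 to 0.01 and a P value of 0.0552 (limma), and its other probes differed by -0.18 and -0.21. With a mouse left out it ran from -0.28 (without nitrate mouse 5, P value 0.0191, limma) to -0.15 (without control 1), and it was called in the former case alone. Hspd1 (Hsp60), the chaperonin barrel, differed by -0.18 with an interval of -0.41 to 0.06.

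Within slides 1, 2 and 3, Hspe1 differed by -0.53, -0.20 and 0.04 and Hspd1 by -0.38, -0.21 and 0.02. Marker genes of mitochondria-rich tissue also differed between these mice. The mean level of the 5 brown adipocyte markers, relative to each gene's mean over the mice, was 0.62 in control 1, 0.54 in nitrate mouse 4 and 0.34 in nitrate mouse 5, and between -0.62 and 0.16 in the other mice. That of the 7 striated muscle markers detected of 10 was 3.02, 3.60 and 0.67 in the same 3 mice, and between -1.80 and -0.10 in the other mice. That of the 4 skeletal muscle markers detected of 7 was 0.52, 0.34 and 0.03 in the same 3 mice, and between -0.56 and 0.18 in the other mice. Within the brown adipocyte list, control 1 was the highest mouse in Elovl3, at 10.98, and the lowest in Dio2, at 10.52. Of the single markers, Cidea of the brown adipocyte list was called lower, at -0.52 (P value 0.00642, limma), lower on each slide and least so on slide 3, at -0.11. The other brown adipocyte markers Ucp1, Elovl3 and Dio2 differed by 0.23, 0.23 and 0.31, and Ppargc1a by -0.15, without a call. Ryr2 of the striated muscle list was called higher, at 0.48, and 6 of the 7 detected markers of that list lay above 0. The part of these markers in the mitochondrial result was not tested.

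Read slide by slide, the list gave unlike values. On slide 1, with nitrate mice 1 and 2 and controls 1 and 2, 25 of 25 ER genes and 10 of 11 cytosolic genes lay higher in the nitrate mice, with medians of 0.17 and 0.14. On slide 3, with nitrate mice 4 and 5 and controls 3 and 5, 10 of 25 ER genes lay higher and 11 of 11 cytosolic genes lay lower, with medians of -0.03 and -0.20. On slide 2 the counts of genes above 0 were 10 of 25 and 2 of 11. Over all names, 56.1%, 51.7% and 55.1% lay above 0 on slides 1, 2 and 3, with medians of 0.04, 0.01 and 0.02.

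Without control 1, 23 of 25 ER genes lay above 0 on slide 1 with a median of 0.12, and 7 of 11 cytosolic genes with a median of 0.05. Of the 38 genes, 7 had the same direction on all 3 slides. The share of all names that did so was not counted, so this number is no result about the list. By their brightest probes Hsph1 lay lower on each, and Manf, Ern1, Eif2ak3, Atf4, Herpud1 and Sel1l lay higher on each. The second probes of Hsph1 on slide 1, at 0.12, and of Atf4 on slide 3, at -0.01, lay on the other side of 0. A slide holds at most 2 mice of a group, so these are values without a test, and mice and slides cannot be told apart. Slides 1 and 2 were scanned on the same day and slide 3 on another.

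Whether chaperones vary together from mouse to mouse was asked in 6 pairs over the 11 mice, with permutation P values adjusted over the 6. Hspd1 and Hspe1 varied together, with a Pearson r of 0.86 (permutation P value 0.00016, adjusted 0.00096) and a Spearman rho of 0.88 (permutation P value 0.00075, adjusted 0.0045). Without nitrate mice 1 and 2, farthest from the median, r was 0.73, and centred within slides it was 0.96. Hspa1a and Dnajb1 varied together as well, with r of 0.79 (permutation P value 0.00361, adjusted 0.0108) and rho of 0.85 (permutation P value 0.00172, adjusted 0.00516). For that pair r was 0.63 without the 2 farthest mice, 0.87 centred within groups and 0.66 centred within slides.

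Hspa1a and Hsph1 had r of 0.68 (permutation P value 0.0208, adjusted 0.0417) and rho of 0.61 (permutation P value 0.0509, adjusted 0.0763), with r of 0.72 without the 2 farthest mice. Hspa5 and Hsp90b1, which share the ER and the ER stress element, had r of 0.54 (permutation P value 0.120, adjusted 0.180) and rho of 0.49 (permutation P value 0.130, adjusted 0.156), with r of 0.45 without the 2 farthest mice. Hspa5 and Pdia6 had r of 0.39 (permutation P value 0.233, adjusted 0.280) and rho of 0.73 (permutation P value 0.0150, adjusted 0.0299). Across compartments, Hspa5 and Hspa1a had r of 0.26 (permutation P value 0.435, adjusted 0.435) and rho of -0.02 (permutation P value 0.967, adjusted 0.967). Without controls 1 and 2, r was 0.63 for Hspa5 with Pdia6 and -0.16 for Hspa5 with Hspa1a. Centred within groups, r was 0.48 for Hspa5 with Hspa1a. In the 6 controls alone, r was 0.50, 0.57 and 0.79 for Hspa5 with Hsp90b1, Pdia6 and Hspa1a. It was 0.87 and 0.84 for Hspa1a with Dnajb1 and Hsph1, and 0.61 for Hspd1 with Hspe1. These values in controls were not tested. A slide holds too few arrays for r within it.

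**Figure D4:**
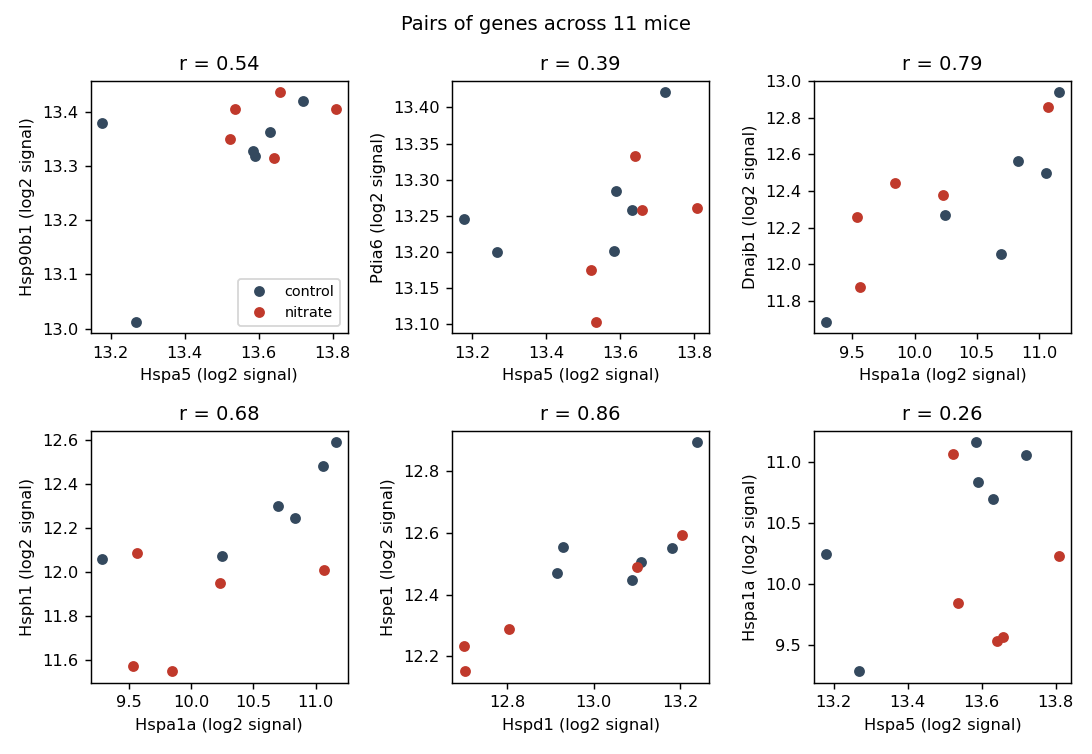
Log2 signals of the first gene (x axis) and the second gene (y axis) of 6 pairs, each point being 1 of 11 mice and colored by group, with Pearson's r above each panel. Hspd1 with Hspe1, at 0.86, and Hspa1a with Dnajb1, at 0.79, line up along a diagonal, and both groups spread along it.

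The other genes of these pathways were read from 6 lists of 96 genes, of which 93 were detected. Of the 93, 4 were called higher and 5 lower, or 9.68%, close to the 8.89% of all names, and the smallest adjusted P value was 0.161. No gene of the further ER degradation list was called (12 genes), nor of the TRiC chaperonin list (8 genes). In the list of ER folding enzymes and the translocon 2 of 19 were called by their brightest probe, in the UPR and integrated stress response list 2 of 17, and among cytosolic chaperones and co-chaperones 3 of 28.

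In the ER, Ero1l, the oxidase that feeds the disulfide isomerases, was higher by 0.28 (P value 0.0209, limma). Its levels were 7.69, 7.54, 7.51, 7.40 and 7.27 in nitrate mice and 6.95 to 7.45 with a median of 7.19 in controls. Dnajc10, an ER disulfide reductase, was higher by 0.28 on its brightest probe and differed by 0.06 on another. Sec63, a partner of the translocon named after its values were seen, differed by -0.12 on its brightest probe, while its other probe was called higher at 0.39 (P value 0.000639, limma) with no overlap between the groups, so its probes disagree in direction. P4hb, the main disulfide isomerase, differed by 0.12. Ppib, a prolyl isomerase of collagen folding, did not overlap between the groups, with levels of 13.00 to 13.15 in nitrate mice and 12.69 to 12.98 in controls, yet its difference of 0.17 was under the fold limit. Ppib was named after its values were seen.

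Of the targets of Atf4, Asns (asparagine synthetase) was lower by 0.46 (P value 0.0122, limma), with levels of 10.63, 10.84, 10.84, 11.28 and 11.36 in nitrate mice and 11.15 to 11.85 in controls. Nupr1, a stress-induced chromatin protein, was higher by 0.33 (P value 0.0178, limma). Ppp1r15a (Gadd34), which restores translation, differed by 0.09. Atf3 differed by 0.15 with an interval of -1.12 to 1.42, since it spanned 8.24 to 11.72 over the mice and was lowest in control 1 and nitrate mouse 1, the mice that were low in Atf4. Trib3 did not pass the detection rule, and its difference in a fit over all probes was -0.33.

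In the cytosol, the small heat shock protein Hspb7, known from heart and skeletal muscle, had the largest rise of the 96 genes, 0.49 (P value 0.00317, limma). Its levels were 11.68, 12.03, 11.84, 11.57 and 11.42 in nitrate mice and 10.94 to 11.51 with a median of 11.22 in controls, and 4 of the 5 nitrate mice lay above every control. Nitrate mouse 4 and control 1, the mice highest in striated muscle markers, had Hspb7 levels of 11.57 and 11.08. The relation of Hspb7 to these markers was not tested. Hspb6 (Hsp20), a relaxation-linked heat shock protein of smooth muscle, did not overlap between groups, with levels of 12.68 to 12.88 in nitrate mice and 12.27 to 12.57 in controls. Its difference of 0.25 had a P value of 0.00429 (limma) and lay just under the fold limit. Hspb8, the partner of Bag3, differed by -0.03.

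The 28 further cytosolic chaperones and co-chaperones were divided evenly, with 14 above 0 and 14 below and a median of 0.00. Fkbp4, an Hsp90 co-chaperone of steroid receptors, was lower by 0.29 with a P value of 0.00212 (limma), and 4 of 5 nitrate mice lay below every control. Bag1, a nucleotide exchange factor of Hsp70, was lower by 0.27, and its other probe differed by -0.21 without a call. St13 (Hip), an Hsp70 cofactor named after its values were seen, did not overlap between groups, with levels of 10.99 to 11.07 in nitrate mice and 11.16 to 11.40 in controls, and a difference of -0.22. By their brightest probes, all 9 called genes but Nupr1 had the same direction on each slide, while on slide 2 the other probes of Dnajc10 and Bag1 differed by -0.23 and 0.05. The slides are parts of the arrays that gave these calls, so a shared direction is no separate support. Nupr1 differed by 0.73, 0.31 and -0.07 on slides 1, 2 and 3. Several calls lay near the fold limit of 0.26 log2 units and ended without a single mouse. Ero1l was at 0.23 without nitrate mouse 1, 0.25 without control 1 and 0.24 without control 5, and Dnajc10 at 0.23 without control 1 and 0.25 without control 6. Nupr1 was at 0.23 without nitrate mouse 2 and Fkbp4 at -0.25 without nitrate mouse 4. Bag1 lay between -0.26 and -0.22 without nitrate mouse 1, 2 or 3 or control 1 or 3, and was then not called. Hspb6 was at 0.27 and called without nitrate mouse 3 or 5 or control 2, and at 0.26 and called without control 3. Likewise named after their values were seen, Dnaja2, a partner of Hsp70, differed by 0.13 and the TRiC subunit Cct3 by -0.13, both without overlap. By their brightest probes, 3 of the 93 further genes lay higher without overlap and 2 lower, where 1.78% and 1.16% of all names did.

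Of the 9 further mitochondrial chaperones and proteases, all lay below 0 by their brightest probes, with a median of -0.16. By the same probes 2 were called lower, where over all names 54.6% lay above 0 and 4.62% were called lower. These were Trap1, the mitochondrial Hsp90, lower by 0.34 (P value 0.00252, limma), and Clpx, the unfolding subunit of a protease, lower by 0.37 (P value 0.00851, limma). Trap1 levels were 10.10, 10.12, 10.17, 10.15 and 10.43 in nitrate mice and 10.24 to 10.67 with a median of 10.58 in controls. Hspa9 (mortalin), the mitochondrial Hsp70, differed by -0.15. Grpel1, also among the 9 and named after its values were seen, differed by 0.12 on its other probe. Leaving out any mouse kept all 9 below 0 and both calls, with medians from -0.23 to -0.09. Within slides 1, 2 and 3 the difference was -0.50, -0.26 and -0.27 for Trap1, -0.75, -0.29 and -0.09 for Clpx, and -0.50, -0.04 and 0.07 for Hspa9.

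**Figure D5:**
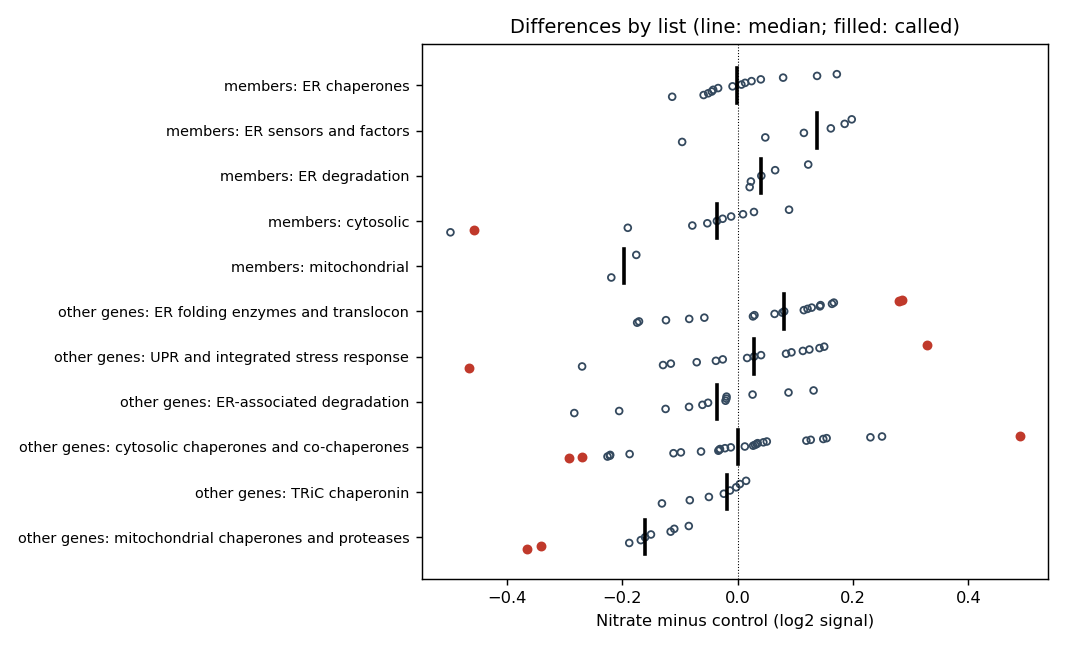
Nitrate minus control difference in log2 signal (x axis) of each detected gene of the 5 groups of the list and of the 6 further lists (y axis), with filled points for genes called, open points for the rest and a black line for the median of each list. By their brightest probes, the lists of mitochondrial genes lie fully below 0, with medians of -0.20 and -0.16. The medians of the 2 ER degradation lists lie on opposite sides of 0, at 0.04 and -0.04, and the further one spans 0, from -0.28 to 0.13.

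Marker genes of other cells differed between the groups in some lists, and over all names 4.27% were called higher and 4.62% lower. All 8 adipocyte markers were lower on average in nitrate mice and 3 were called lower, with list means of -0.55 to 0.05 in nitrate mice and -0.16 to 0.54 in controls. Of the 6 B and plasma cell markers, whose cells are rich in ER chaperones, 5 had a probe, 3 were detected and 2 were called lower, with list means of -0.73 to 0.27 and -0.03 to 0.85. Derl3, listed among those markers and named after its values were seen, also serves ER degradation, and was lower by 0.61 (P value 0.00286, limma), with differences of -0.86, 0.03 and -0.78 on slides 1, 2 and 3. The list mean of smooth muscle markers was lowest in control 1, at -0.44, and lay between -0.08 and 0.15 in the other mice. Of 9 core clock genes detected, 6 were called higher and 2 lower. Their part in the chaperone values was not tested.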

How the data were processed

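The authors deposited, per the file headers, background-subtracted spot intensities with quality flags (Feature Extraction 10.7.1.1) and 1 table of log2 values. The intensities were not normalized between arrays. Each column of the deposited log2 table correlated best with its own array. Each of its 55821 rows has a median of 0 over the 11 arrays (tolerance 1e-06), so it is centred per probe, as the study's methods state, and its columns have medians of -0.0268 to 0.

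Processed signals under 1 were set to 1, log2 was taken, and the 11 arrays were quantile normalized without control spots or spots flagged as outliers, averaging repeated spots. Of 55681 probes, 23633 were found and well above background on 5 or more arrays of a group and were tested with lmFit and eBayes (R 4.3.3, limma 3.58.1), with Benjamini-Hochberg adjustment over them. A call required P under 0.05 without adjustment, with a fold above 1.2. Each gene was read from its detected probe with the highest mean. Exact permutation tests covered 462 divisions of the mice, with a smallest P value of 0.00216. Relations used 100000 resamples in SciPy 1.17.1 (Python 3.11.15), and Hspa1a stood in for Hspa1b. Each array is a separate mouse.

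The 39 genes, the lists of further genes and the markers were chosen with earlier results of these data known. Named genes were all 39 genes, any further gene that was called, and Ppp1r15a, Trib3, Atf3, Asns, Hspa9, Hspb6, Hspb8 and P4hb, with exceptions stated where they stand. Gene names and mm9 probe positions are those of the files, and the promoter windows are from RefSeq (GRCm38.p6). Alternatives covered scaling, background correction, a signal offset (16), the authors' log2 table, the rules for detection, flagged spots, prior variance, slide and replicate blocks, the choice of probe and each array left out.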

Additional observations from a re-analysis of the deposited data

Results flagged for a closer look

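Of 106 groups of values tested for a mouse far from the others (53 genes in 2 groups), 11 stood out, where chance gives about 1 in 20, or 5.3. Each number here is the gap to the nearest mouse divided by the range of the group. Control 1 accounted for 5 of the 11. It was low in Hsp90b1 (0.752), Hsf1 (0.711), Ppp1r15a (0.742) and Hspb6 (0.725), and high in Hspe1 (0.762). Among the other genes of the list, Atf4 was low in nitrate mouse 1 (0.926), Xbp1 was high in nitrate mouse 2 (0.776) and Cryab was low in nitrate mouse 5 (0.775). Among the further genes, Fkbp4 was low in control 5 (0.721), and Trap1 was high in nitrate mouse 5 (0.788) and low in control 6 (0.681).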

How the results depend on the processing

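Of the 38 genes, 23 kept their direction under every setting and 15 did not, all with a main difference of at most 0.048 in size and opposite values of at most 0.101. With a mouse left out, 1 to 2 of the 38 genes were called lower and 0 to 1 had groups without overlap, and of the further genes 2 to 6 were called higher and 4 to 7 lower. With a mouse left out, differences ran from -0.0063 to 0.11 (Pdia3), -0.069 to 0.052 (Pdia4), -0.0019 to 0.053 (Dnajb11), -0.11 to 0.037 (Dnajc3), -0.077 to 0.055 (Hyou1), -0.026 to 0.064 (Creld2), -0.073 to 0.013 (Serpinh1), -0.018 to 0.103 (Ddit3), -0.016 to 0.058 (Edem1), -0.036 to 0.0903 (Syvn1), -0.071 to 0.0054 (Hsp90aa1), -0.081 to 0.0303 (Hsp90ab1), -0.101 to 0.15 (Dnajb1), -0.085 to 0.073 (Hspb1), -0.055 to 0.199 (Ppp1r15a), -0.24 to 0.53 (Atf3) and -0.078 to 0.00299 (Hspb8). With 75th percentile scaling Hyou1 was -0.012 and Hspb1 -0.010, and with normexp correction Hyou1 was -0.020. With median scaling Pdia4 was 0.020 and 2 further genes were called lower. Median scaling also gave 1015 probes higher and 720 lower over the whole array, against 982 and 1146. With slide as a block Pdia4 was 0.0091, Syvn1 -0.0026 and Hsp90ab1 0.0051. With the mean of all probes Dnajb9 was -0.045. Replicate numbers do not pair the mice, since same-numbered mice correlated between -0.14 and 0.18 and 1 of 5 correlated best with its own number. With a replicate block (control 6 left out), Pdia4 was 0.052, Syvn1 -0.00062 and Dnajb1 -0.027, and 2 further genes were called higher. Of the relations, Hspa5 with Hspa1a was -0.16 without the 2 farthest mice and 0.48 centred within groups, and Hspa5 with Pdia6 was 0.63 without them. Some calls of further genes were lost. Ero1l was not called with median scaling (0.29), normexp (0.22) or the offset (0.26), Dnajc10 with slide as a block (0.26), the replicate block (0.25) or the mean of all probes (0.17), and Bag1 with median scaling (-0.27), normexp (-0.26) or the mean of all probes (-0.24). Nupr1 was not called with median scaling (0.29) or the replicate block (0.33), nor Fkbp4 (-0.26) and Clpx (-0.34) with median scaling, under which Hspb6 was called (0.26). The causes were not tested. All 38 genes were well above background on all 11 arrays, but the spot of Ern1 was not marked as found on 2 of them and that of Hspa8 on 1. Requiring both on all arrays left 37 genes, without Ern1 and with Hspa8 read from another probe.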
